A study of Mus musculus with 6 samples.

Results

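The nuclear genes of respiratory complex I were followed in mouse aortic smooth muscle cells (MASMCs) with and without Pdk4. The genes were taken by name: every protein-coding gene whose symbol began with Nduf, which gave 45 of the 41721 genes in the table. Of these, 38 carried the names of subunits and 7 carried the names of assembly factors (Ndufaf), and the 45 all passed the filter on low counts. Among the 38, Ndufa4 and Ndufa4l2 keep names given when Ndufa4 was counted as a complex I subunit, and they are described apart from the other 36.

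Complex I (NADH:ubiquinone oxidoreductase) is the largest enzyme of the mitochondrial respiratory chain. It takes electrons from NADH in its N module, passes them through iron-sulfur clusters to ubiquinone in its Q module and pumps protons across the inner membrane through the proximal and distal parts of its membrane arm. A set of core subunits carries the chemistry, supernumerary subunits surround them, and assembly factors join the modules without staying in the finished enzyme. PDK4 is a kinase that inhibits the pyruvate dehydrogenase complex, a source of the NADH that complex I oxidizes.

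MASMCs were grown from the abdominal aorta of mice aged 10 weeks, either Pdk4fl/fl, with loxP sites around exons 4 to 6 of Pdk4, or Pdk4SMKO, which carry the same floxed alleles and a tamoxifen-inducible Cre driven by the smooth muscle gene Myh11 (Myh11-creERT2). Mice of both genotypes, on a C57BL/6J background, received tamoxifen on 5 days. The cells were cultured and used at passages 4 to 8, and those sequenced had all been exposed to angiotensin II (Ang II), at 1 µM for 48 h, so no library shows cells without Ang II. Each genotype was sequenced in 3 libraries, which the labels do not tie to separate mice, and the p-values measure only the spread between these libraries.

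Total counts ran from 16526044 to 22481670 per library. Pdk4, the targeted gene (chromosome 6, 2392986 to 2408102), was at 38.0, 35.1 and 31.9 CPM (read counts relative to the TMM-scaled total of the library) in Pdk4fl/fl and at 4.83, 9.06 and 6.92 CPM in Pdk4SMKO. Pdk4 RNA was thus lowered to 19.8% of the Pdk4fl/fl mean and not absent. The genotypes differed widely beyond it. The lowest Pearson correlation of log2 CPM between libraries of the same genotype was 0.981 and the highest between genotypes was 0.748. By the limits for a call given below, 26.5% of all genes tested were lower in Pdk4SMKO and 32.8% were higher. Of 8 smooth muscle markers, 3 were lower and 4 higher in Pdk4SMKO, and Myh11, the gene that drives the Cre, was at means of 0.613 and 2.39 CPM. Of the mesothelial markers, 7 of 7 tested were higher (summed level 74.2 to 100 CPM against 723 to 1325 CPM). Markers near 0 in Pdk4fl/fl, such as Krt18 (0, 0 and 1 counts) and Upk1b (2, 2 and 3), passed the low-count filter through Pdk4SMKO alone. Counts over the tested mesothelial and macrophage markers therefore lean toward higher. Of the macrophage markers, 5 of 6 tested were higher and 1 was lower, with 4 of the 8 listed at 0 counts in every Pdk4fl/fl library and a summed level of 21.6 to 38.0 against 10.2 to 31.8 CPM. Cd68, the lower 1, made up most of the Pdk4fl/fl sum (means of 31.2 and 4.29 CPM). Of the fibroblast markers, 3 of 6 were higher and 1 lower (626 to 855 against 5152 to 7054 CPM). Most of that sum was Col1a1, at means of 620 and 5901 CPM, while Pdgfra was at 20.8 and 26.5 CPM and was not called. Of the endothelial markers, the 2 tested of 6 were lower (14.1 to 23.7 against 2.84 to 5.58 CPM, with Cldn5 at 0 in both), and of the proliferation markers 2 of 6 were lower (412 to 479 against 234 to 390 CPM). Xist, transcribed from the inactive X chromosome, had 3, 4 and 5 counts in Pdk4fl/fl and 610, 347 and 321 in Pdk4SMKO. Per the study's methods only males were used, the Cre being carried on the Y chromosome, and the Xist counts of the libraries labelled Pdk4SMKO go against that. Genotype therefore cannot be told apart from whatever else separated the cultures, and the part of any of these markers in the values below was not tested. Since the RNA came from whole cultures, fewer cells of a type and less RNA per cell cannot be told apart either.

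The promoters of complex I genes are known for sites of the factors NRF1 and ETS, and the windows of the members that RefSeq holds were read for what they share. RefSeq windows on GRCm38.p6, from 250 bases before to 50 bases after a gene's start, were found for 39 of the 45 members, and both strands were searched for the NRF1 motif GCGCNNGCGC, the ETS core CCGGAAG and the CCAAT box CCAAT. The NRF1 motif was in the windows of 11 of the 39 members (28.2%), against 7% of the 27025 genes in the promoter table. The ETS core was in 5 members (12.8%, against 9.93% of all genes) and the CCAAT box in 13 (33.3%, against 41.1%). The promoter windows of the most lowered and the most raised of those of the 36 subunits that have a window in the table are shown up to the base before the start, on the gene's strand, with each motif match in capitals. They lie at chr19:3912775-3913024 (minus strand) and chr1:58586147-58586396 (plus strand).
Ndufs8: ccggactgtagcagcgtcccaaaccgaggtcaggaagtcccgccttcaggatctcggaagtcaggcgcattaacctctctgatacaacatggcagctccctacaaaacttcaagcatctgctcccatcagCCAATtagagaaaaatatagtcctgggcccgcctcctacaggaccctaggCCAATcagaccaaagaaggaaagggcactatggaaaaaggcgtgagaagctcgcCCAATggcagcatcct
Ndufb3: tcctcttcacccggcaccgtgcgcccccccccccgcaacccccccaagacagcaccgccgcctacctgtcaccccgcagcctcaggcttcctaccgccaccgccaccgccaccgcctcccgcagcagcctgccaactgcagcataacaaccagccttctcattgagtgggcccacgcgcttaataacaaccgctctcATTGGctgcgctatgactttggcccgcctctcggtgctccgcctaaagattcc
The Ndufs8 stretch held 3 matches, all CCAAT boxes, and the Ndufb3 stretch held 1, also a CCAAT box. The full Ndufs8 window also held an ETS core, which reaches past the printed stretch. Of the 11 members with the NRF1 motif, 3 passed the adjusted p limit given below (Ndufv2, Ndufaf4 and Ndufaf5), and of the 28 without it 16 did, where 79.1% of all genes tested passed it. The 30 bases around the motif are shown for Ndufv2, which was lower in Pdk4SMKO, and Ndufaf4, which was higher, with the 10 bases of the motif in capitals. They lie at chr17:66101557-66101586 (minus strand) and at chr4:24897960-24897989 (plus strand). The motif lies before the start in both, while the end of the Ndufv2 stretch runs past the start. Ndufaf5, which was lower, holds the motif past its start and is not shown. The part of the motif in these differences was not tested.
Ndufv2: gggctcgtgaGCGCGCGCGCgccgtgcgtc
Ndufaf4: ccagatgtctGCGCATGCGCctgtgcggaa

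Most complex I subunits differed little between Pdk4fl/fl and Pdk4SMKO MASMCs, and the few that passed both limits went in both directions. The limits for a call were an adjusted p under 0.05 (edgeR quasi-likelihood test, adjusted over the 14085 genes tested) together with a fold change of 2 or more. Of the 38 genes with subunit names, 2 were lower in Pdk4SMKO (5.26%, against 26.5% of all genes tested) and 4 were higher (10.5%, against 32.8%). The lower were Ndufs8 and Ndufb5, and the higher were Ndufs1, Ndufb3, Ndufa9 and Ndufa4l2. Ndufa4l2, with 1, 4 and 1 counts in Pdk4fl/fl, passed the low-count filter through Pdk4SMKO alone. Of the 36 subunits without it and Ndufa4, 2 were lower (5.56%) and 3 higher (8.33%). Between log2 fold changes of -1 and 1 stood 32 of the 38 (84.2%), where 40.0% of all genes tested stood. The median log2 fold change (Pdk4SMKO minus Pdk4fl/fl) was -0.19 over the subunit names and 0.12 over all genes tested, with medians of their standard errors of 0.20 in both.

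**Figure D1:**
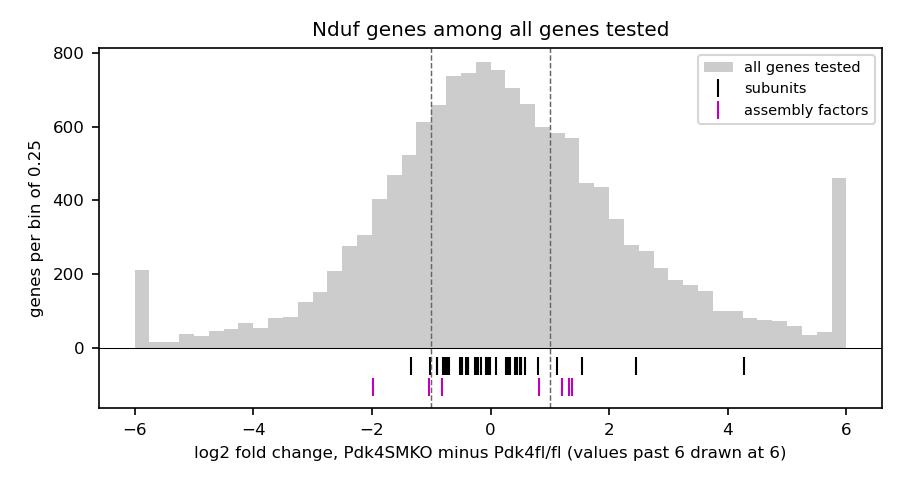
Histogram of the log2 fold change (Pdk4SMKO minus Pdk4fl/fl) of the 14085 genes tested, with the 38 subunit names and the 7 assembly factors as ticks below the axis and dashed lines at the 2-fold limits. The subunit ticks crowd between the dashed lines, where 32 of 38 lie, while 5 of the 7 assembly factor ticks lie outside them.

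By the adjusted p alone, 11 of the 38 subunit names were lower and 6 higher, so that 17 (44.7%) passed where 79.1% of all genes did. Of the 36 without Ndufa4 and Ndufa4l2, 10 were lower and 5 higher at that limit. The genotypes did not overlap in CPM for 14 of the 38 (36.8%), 10 lower and 4 higher in Pdk4SMKO, against 81.8% of all genes tested. An exact two-sided permutation test of 3 libraries against 3 cannot give a p under 0.1, and it gave 0.1 for each of those 14. The direction of the smaller differences rested on the scaling. With the library totals alone, which moved the median of all genes from 0.12 to 0.72, 1 subunit name was lower and 20 were higher by the adjusted p.

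Pdk4fl/fl replicate 3 stood apart for these genes, and also for genes of other respiratory complexes. In Pdk4fl/fl replicates 1, 2 and 3, Atp5l was at 124, 156 and 264 CPM and Uqcrh at 140, 150 and 259 CPM. Others were more even, such as Atp5a1 at 521, 529 and 554 CPM and Uqcrc1 at 49.9, 48.3 and 48.5 CPM. Pdk4fl/fl replicate 3 was above the mean of its genotype's other libraries in 43 of 44 members, by a median of 0.69 on the log2 scale. All members but Ndufa4l2 were compared. Over all genes tested the same median was 0.003. TMM scaling holds that median near 0 in every library, so it cannot show whether other genes deviated too. The summed level of the 36 complex I subunits was 1571, 1674 and 2472 CPM in Pdk4fl/fl replicates 1, 2 and 3, and 1512, 1576 and 1769 CPM in Pdk4SMKO. The genotypes overlapped, and the ratio of the means was 0.8496. Without Pdk4fl/fl replicate 3 the ratio was 0.998, the median log2 fold change of the subunit names was 0.12 in place of -0.19, and 10 were lower and 14 higher by the adjusted p. The genotypes then did not overlap for 25 of the 38, against 87.2% of all genes. Pdk4SMKO replicate 3 was above its genotype's others in 40 of the 44, by a median of 0.23.

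**Figure D2:**
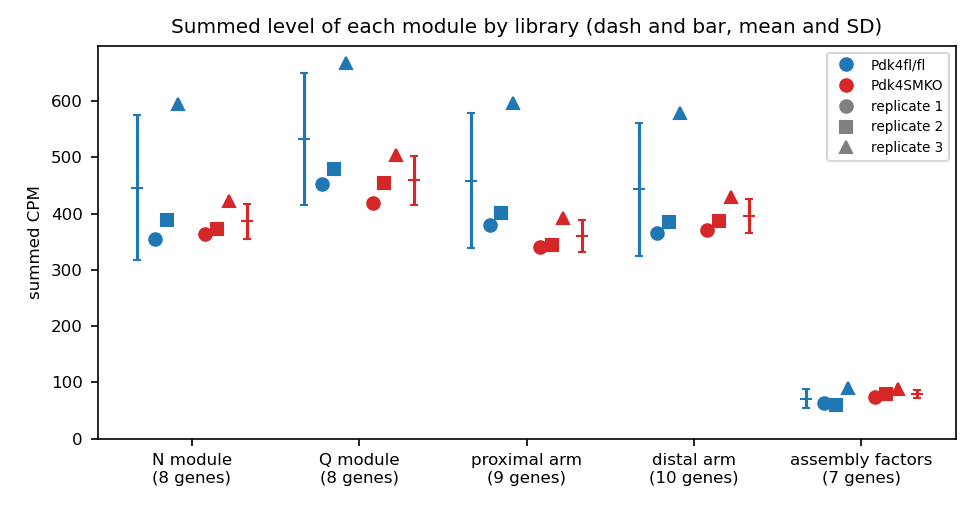
Summed level in CPM of the N module, Q module, proximal and distal membrane arm and the 7 assembly factors in each library (points, by replicate), with the mean and SD of each genotype beside them. Pdk4fl/fl replicate 3 lies above the other 5 libraries in each of the 4 modules, and the remaining libraries of the genotypes interleave or lie close.

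The 7 nuclear core subunits, which bind the flavin, the iron-sulfur clusters and ubiquinone, did not share a direction. By the adjusted p, Ndufs8, Ndufv1 and Ndufv2 were lower, Ndufs1 and Ndufs7 were higher, and Ndufs3 was not called. Ndufs8, which carries iron-sulfur clusters of the Q module (MGP_C57BL6NJ_G0025045, chromosome 19, 719453 to 723300), was at 76.3, 84.8 and 105 CPM in Pdk4fl/fl and 32.5, 36.9 and 35.6 CPM in Pdk4SMKO. The highest Pdk4SMKO library lay below the lowest Pdk4fl/fl library. Its log2 fold change was -1.34 ± 0.14 (SE, n = 3 per genotype, edgeR adjusted p = 1.214e-05), to 39.5% of the Pdk4fl/fl mean. It passed the 2-fold limit in each fit that left out a library, and fell short of it at -0.73 with library totals alone and at -0.92 after a loess trend on gene length was taken out of every library.

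Ndufs1, the large iron-sulfur subunit of the N module (MGP_C57BL6NJ_G0016476, chromosome 1, 65715909 to 65752971), moved the other way. It was at 11.8, 10.8 and 15.1 CPM in Pdk4fl/fl and 65.8, 68.7 and 72.1 CPM in Pdk4SMKO, a log2 fold change of 2.46 ± 0.15 (edgeR adjusted p = 2.618e-07) and the largest among the 36. Its span shares a few bases with the start of Eef1b2 (65752963 to 65757637) on the opposite strand, head to head. Eef1b2, an elongation factor gene, was lower, at a mean of 857 CPM in Pdk4fl/fl and 420 CPM in Pdk4SMKO (log2 fold change -1.03). Whether the counting used strand is not given in the sources used here. Per kilobase of gene model, Ndufs1 was at 1.56 CPM per kilobase (RPKM) in Pdk4fl/fl and 8.54 in Pdk4SMKO, still under the median of the 36 in either genotype (35.2 and 28.5).

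Ndufv1 and Ndufv2, the flavin-bearing subunit that takes electrons from NADH and its iron-sulfur partner, were both lower by less than 2-fold. Ndufv1 was at 110, 120 and 137 CPM in Pdk4fl/fl and 70.6, 75.1 and 72.4 CPM in Pdk4SMKO, without overlap (log2 fold change -0.75 ± 0.12, edgeR adjusted p = 0.0002381). Ndufv2 was at 76.3, 76.8 and 119 CPM against 46.2, 51.3 and 58.7 CPM (-0.80 ± 0.19, edgeR adjusted p = 0.002631). Ndufs7, which lines the site where ubiquinone is reduced, was at 17.8, 17.3 and 28.5 CPM against 27.4, 30.1 and 32.97 CPM (0.51 ± 0.20, edgeR adjusted p = 0.03843), and its genotypes overlapped through Pdk4fl/fl replicate 3. Its adjusted p was above 0.05 in 4 of the 6 fits that left out a library. Ndufs3, which joins the Q module early in assembly, was at 41.0 ± 8.84 and 39.6 ± 3.21 CPM (mean ± SD, n = 3) and differed by less than the spread between libraries.

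**Figure D3:**
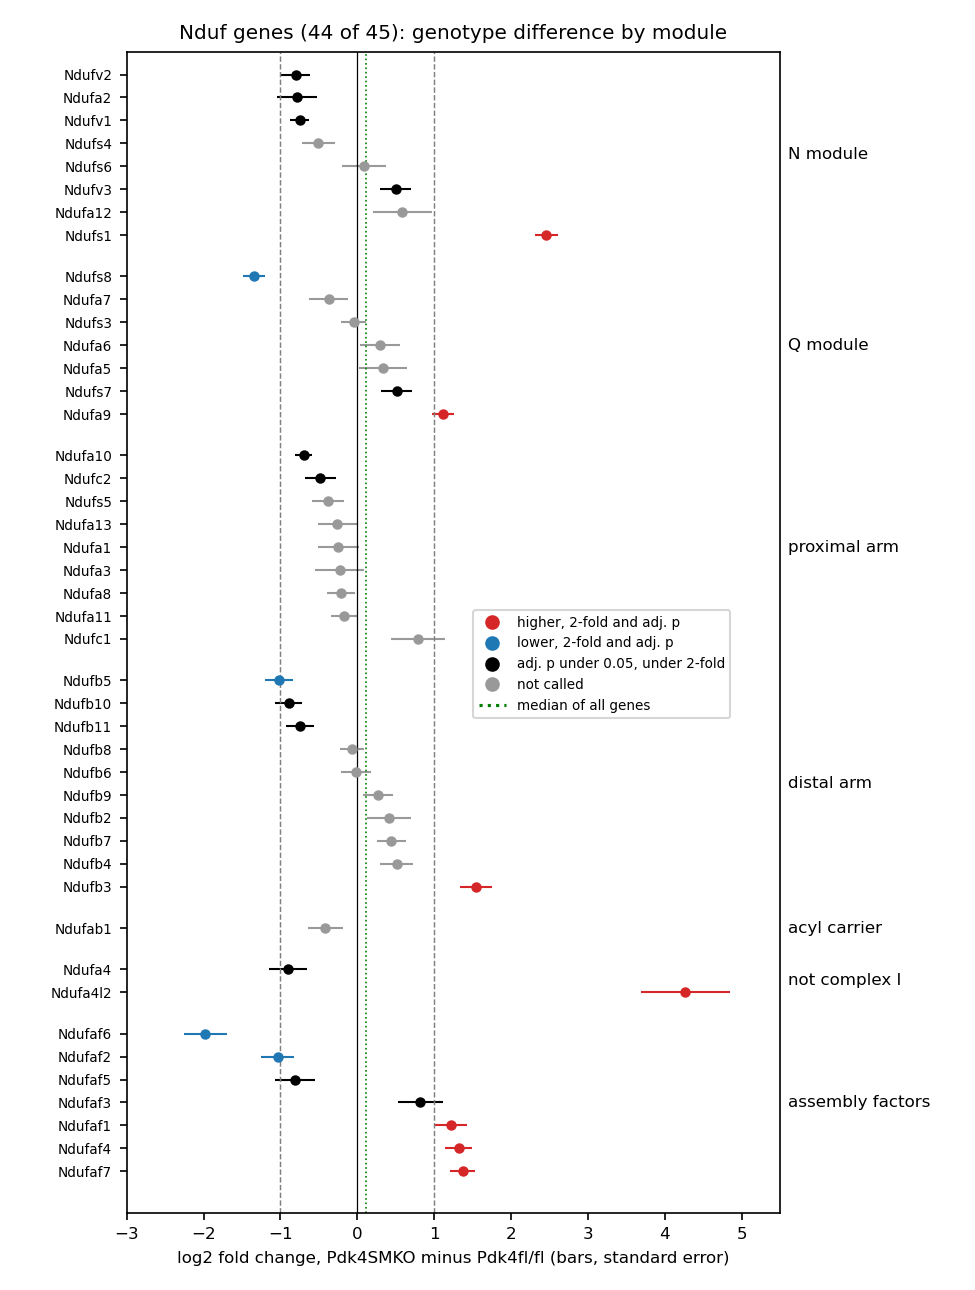
Log2 fold change (Pdk4SMKO minus Pdk4fl/fl) with its standard error for 44 of the 45 genes, grouped by module and ordered within it, with dashed lines at the 2-fold limits and a dotted line at the median of all genes (0.12). Each of the 4 modules holds genes on both sides of 0, and no gene of the proximal arm passes a dashed line.

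In the N module (8 genes), 1 was higher past both limits, Ndufs1, and by the adjusted p 3 were lower and 2 higher. Besides Ndufv1 and Ndufv2, Ndufa2 was lower (-0.78 ± 0.26), and Ndufv3, an accessory of the flavin-bearing part, was higher by less than 2-fold (0.50 ± 0.20), with overlapping genotypes. Ndufs4 (-0.51 ± 0.22) and Ndufs6 (0.09 ± 0.29) were not called, and their genotypes overlapped. In the Q module (8 genes), Ndufs8 was lower and Ndufa9 higher past both limits. Ndufa9, which binds a nucleotide where the arms meet (chromosome 6, 133696156 to 133725383), was at 26.9, 24.0 and 30.04 CPM in Pdk4fl/fl and 52.9, 54.3 and 67.7 CPM in Pdk4SMKO (1.11 ± 0.15, edgeR adjusted p = 5.705e-05). It passed both limits in each alternative tried. Ndufa5, Ndufa6 and Ndufa7 ran from -0.37 to 0.33, with overlapping genotypes.

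Of the 9 genes of the proximal membrane arm none passed both limits, and Ndufa10 and Ndufc2 alone passed the adjusted p, both lower. Ndufa10, a kinase-like subunit on the matrix side, was at 141, 133 and 145 CPM in Pdk4fl/fl and 81.7, 86.6 and 90.7 CPM in Pdk4SMKO, the gene of this arm without overlap (-0.70 ± 0.11). Ndufc2 was at 36.8 ± 10.1 and 26.4 ± 3.80 CPM, with overlap. Ndufc1 stood at the other end, at 6.27, 6.15 and 16.9 CPM against 15.9, 15.3 and 19.1 CPM. Its difference was not called (0.79 ± 0.35, edgeR adjusted p = 0.05904) but reached 1.42 and was called without Pdk4fl/fl replicate 3. The other 6 (Ndufa1, Ndufa3, Ndufa8, Ndufa11, Ndufa13 and Ndufs5) ran from -0.38 to -0.17 with overlapping genotypes. Of the 2 X-linked members, Ndufa1 was at 36.3 ± 17.0 and 30.5 ± 3.29 CPM, and Ndufb11 is given with the distal arm.

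In the distal membrane arm (10 genes), Ndufb5 was lower and Ndufb3 higher past both limits, and by the adjusted p 3 were lower and 1 higher. Ndufb3 (chromosome 1, 60804087 to 60814615) was at 8.33, 9.11 and 14.4 CPM in Pdk4fl/fl and 28.7, 30.5 and 33.6 CPM in Pdk4SMKO (1.55 ± 0.21, edgeR adjusted p = 6.375e-05), and it passed both limits in each alternative. Ndufb5 (chromosome 3, 31868508 to 31882915) was at 37.3, 40.4 and 58.0 CPM against 20.2, 21.2 and 25.6 CPM (-1.02 ± 0.19, edgeR adjusted p = 0.0005485). Both are supernumerary subunits of the membrane arm. Ndufb5 stood just past the 2-fold limit, and without Pdk4fl/fl replicate 3 it was at -0.82. Its span overlaps that of Mrpl47 (31854776 to 31869040), a mitochondrial ribosome gene on the opposite strand, which was lower by less than 2-fold (-0.81). Ndufb10 (-0.89 ± 0.18) and the X-linked Ndufb11 (-0.74 ± 0.18, at 79.0, 80.4 and 123 against 50.1, 56.6 and 62.0 CPM) were lower by less than 2-fold, without overlap. The other 6 (Ndufb2, Ndufb4, Ndufb6, Ndufb7, Ndufb8 and Ndufb9) ran from -0.07 to 0.51 with overlapping genotypes, and the span of Ndufb2 overlaps Braf, on the opposite strand, which had a mean of 1558 counts.

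Ndufab1, the acyl carrier protein that sits in complex I and also serves mitochondrial fatty acid synthesis, was at 19.4, 18.5 and 33.7 CPM in Pdk4fl/fl and 17.8, 16.6 and 19.0 CPM in Pdk4SMKO, with overlap (-0.42 ± 0.23, edgeR adjusted p = 0.1132). Ndufa12, which takes the place of the assembly factor Ndufaf2 late in assembly, was the least even of the members across libraries of Pdk4SMKO. It was at 11.6, 13.3 and 22.3 CPM in Pdk4fl/fl and at 23.6, 10.9 and 36.2 CPM in Pdk4SMKO (0.59 ± 0.39, edgeR adjusted p = 0.1853). A processed pseudogene whose description names the Ndufa12 protein had 215, 202 and 222 counts against 150, 224 and 196, so Ndufa12 itself, with 174 to 295 and 219 to 737 counts, is uncertain where reads could be shared.

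Ndufa4, a subunit now placed with complex IV, and its paralog Ndufa4l2, known as a gene induced by hypoxia, went in opposite directions. Ndufa4 was at 126, 150 and 272 CPM in Pdk4fl/fl and 94.3, 89.8 and 109 CPM in Pdk4SMKO, lower by less than 2-fold (-0.90 ± 0.25, edgeR adjusted p = 0.007172). Ndufa4l2 had 1, 4 and 1 counts in Pdk4fl/fl and 35, 72 and 54 in Pdk4SMKO, or 0.121 and 2.59 CPM on average. The summed counts, 6 against 161, gave a ratio of 19.7 after scaling, with a 95% exact interval of 8.85 to 54.5 that covers counting error alone. It was thus near the floor of 3 counts per library in Pdk4fl/fl and at 2.70 RPKM in Pdk4SMKO, where Ndufa4 was at 79.4 RPKM. Its end overlaps that of Shmt2 on the opposite strand, which was lower in Pdk4SMKO (-1.55).

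Most assembly factors differed between the genotypes, and in both directions. Of the 7, 2 were lower past both limits (28.6%, against 26.5% of all genes tested) and 3 were higher (42.9%, against 32.8%). The 7 all passed the adjusted p, as 79.1% of all genes did, and for none did the genotypes overlap, as for 81.8% of all genes. The median log2 fold change was 0.82, with values from -1.98 to 1.37. These shares are near the background and those of the subunits lie under it, and the difference between the 2 kinds of gene was not tested.

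Ndufaf6, needed early for the part of the membrane arm built on ND1, was the most lowered of the 45 (chromosome 4, 8108786 to 8131460). It was at 8.93, 8.35 and 14.6 CPM in Pdk4fl/fl and 2.68, 2.19 and 3.19 CPM in Pdk4SMKO (-1.98 ± 0.28, edgeR adjusted p = 9.412e-05), and it passed both limits in each alternative. Ndufaf2, which binds the late intermediate before the N module closes it, was at 18.3, 19.1 and 29.4 CPM against 9.26, 12.3 and 10.9 CPM (-1.04 ± 0.22, edgeR adjusted p = 0.001253). Ndufaf2 stood at the limit, and it was at -0.80 without Pdk4fl/fl replicate 3 and at -0.37 with the length trend removed. Ndufaf5, an enzyme that hydroxylates an arginine of Ndufs7, was at 10.1, 9.77 and 18.5 CPM against 7.55, 7.76 and 6.48 CPM (-0.81 ± 0.26), lower by less than 2-fold.

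Ndufaf7, Ndufaf4 and Ndufaf1 were higher past both limits, and Ndufaf3 by the adjusted p alone. Ndufaf7, a methyltransferase, was at 8.27, 7.30 and 9.46 CPM in Pdk4fl/fl and 20.6, 21.6 and 22.4 CPM in Pdk4SMKO (1.37 ± 0.16, edgeR adjusted p = 2.454e-05). Ndufaf4 and Ndufaf3 act as a pair on the Q module. Ndufaf4 was at 6.93, 6.09 and 6.43 CPM against 14.01, 17.0 and 17.6 CPM (1.32 ± 0.18, edgeR adjusted p = 5.882e-05), while Ndufaf3 was at 4.27, 2.20 and 4.54 CPM against 5.66, 6.42 and 7.21 CPM (0.82 ± 0.30, edgeR adjusted p = 0.02621), higher by less than 2-fold. Ndufaf1, part of the complex that builds the ND2 part of the membrane arm, was at 6.20, 6.53 and 6.89 CPM against 13.5, 12.1 and 19.9 CPM (1.21 ± 0.22, edgeR adjusted p = 0.0004996), and it was at 0.98 without Pdk4SMKO replicate 3. Per kilobase, the assembly factors were expressed at lower levels than the subunits, with medians of 4.97 and 6.62 RPKM in Pdk4fl/fl and Pdk4SMKO.

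**Figure D4:**
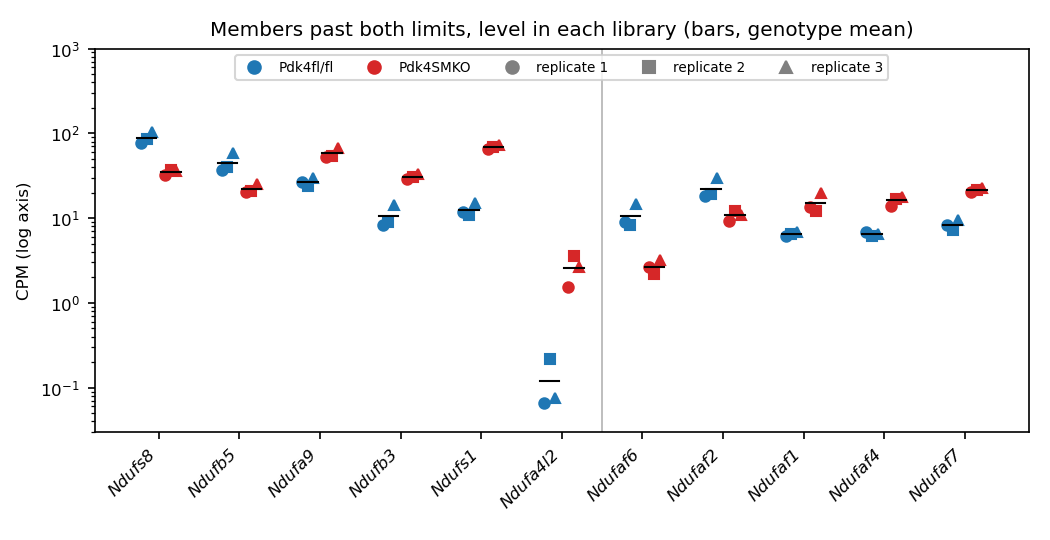
CPM on a log axis in each library (points, by replicate) with the genotype means as bars, for the 6 subunit names and 5 assembly factors past both limits. The genotypes separate for each of the 11 genes, from 0.0667 to 0.220 CPM against 1.54 to 3.58 CPM for Ndufa4l2 up to 76.3 to 105 CPM against 32.5 to 36.9 CPM for Ndufs8.

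Of 11 complex I assembly factors that carry other names, 10 were found in the table, 2 of them by older symbols (Tmem261 for Dmac1 and Atp5sl for Dmac2). By both limits 2 were lower and 4 higher, and for none of the 10 did the genotypes overlap. With the 7 named Ndufaf this made 4 lower and 7 higher of 17 tested, where 26.5% of all genes were lower, 32.8% were higher and 81.8% did not overlap, so these counts lie near the background. Ecsit, a partner of Ndufaf1, was at 32.0, 33.2 and 31.3 CPM against 9.62, 8.06 and 7.02 CPM (log2 fold change -1.97), and Atp5sl was at -1.24. Nubpl, which supplies iron-sulfur clusters to complex I, was the most raised at 2.22 (1.51 and 7.0 CPM on average), followed by Tmem70, Timmdc1 and Tmem186 at 2.17, 2.02 and 2.01. The partners of Ndufaf1 thus did not share a direction, since Ecsit fell, Tmem186 rose, Tmem126b was lower by less than 2-fold (-0.47) and Acad9 was not called (0.30 ± 0.15).

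The nuclear subunits of the other respiratory complexes are set beside those of complex I by their counts at both limits, beside 26.5% lower and 32.8% higher of all genes tested, and the lists were not tested against each other. Of 4 complex II subunits 1 was lower, the membrane anchor Sdhd (-1.63), with the others from 0.03 to 0.68. Of 9 complex III subunits 1 was lower (Uqcrh, -2.05) and 1 higher (Uqcrc1, 1.01). Of 10 complex IV subunits 4 were lower and none higher, from Cox7b (-1.22) to Cox5b (0.44), and of 15 complex V subunits, all found by older symbols, 6 were lower and none higher, from Atp5l (-1.54) to Atp5j (0.45). The medians were 0.34, -0.54, -0.93 and -0.92 for complexes II to V and -0.19 for the 36 subunits of complex I. Without Pdk4fl/fl replicate 3 the lowered genes were 0 in complex IV and 4 in complex V, and with library totals alone they were 0 in both. With the length trend removed they were 0 and 7, and with upper-quartile scaling 1 and 4. Over the fits that left out a library they ran from 0 to 6 in complex IV and from 4 to 9 in complex V.

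Across the 45 members, the log2 fold change followed the level in Pdk4fl/fl inversely (Spearman rho -0.65), as it did across the 12359 protein-coding genes tested (-0.59). The points share their libraries, and the level enters the fold change, so this is a description. With gene length the rho was 0.15 among members and 0.11 among protein-coding genes. The 23 shorter members (419 to 1243 bases) had a median log2 fold change of -0.25 and the 22 longer ones (1260 to 8067 bases) had 0.18. With a trend on gene length, fitted over all genes tested, taken out of every library, the median of the subunit names was 0.13. By the adjusted p 14 of them were then higher, in place of 6.

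**Figure D5:**
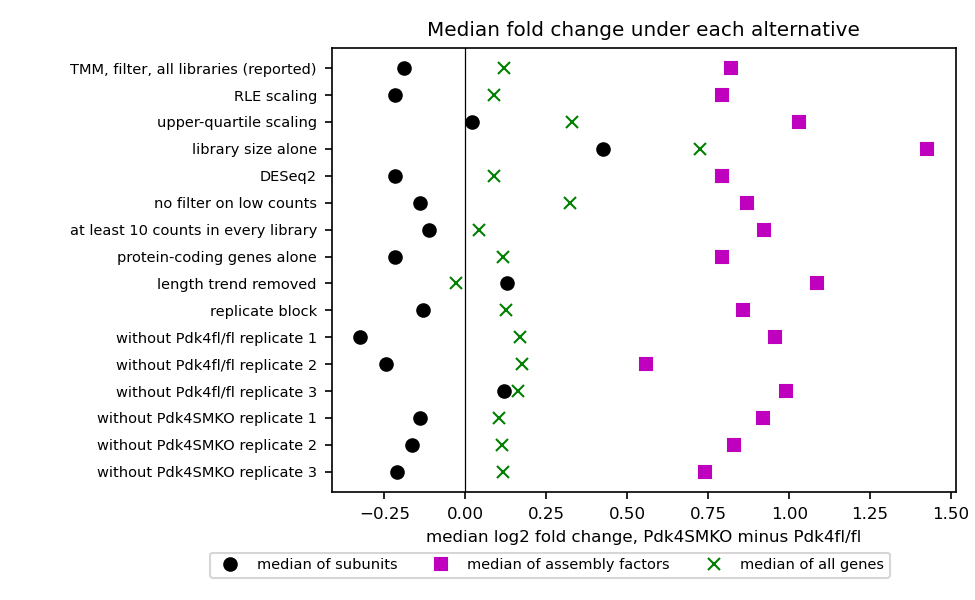
Median log2 fold change (Pdk4SMKO minus Pdk4fl/fl) of the 38 subunit names, the 7 assembly factors and all genes tested, under the reported fit and each alternative. The subunit median lies below the median of all genes in each row but that with the length trend removed, and crosses 0 in 4 rows, while the assembly factor median stays above the median of all genes.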

How the data were processed

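MASMCs of both genotypes were sequenced with 150 bp paired-end reads. The study names the NEBNext Ultra kit and the labels a SMARTER kit. The authors deposited raw counts, not normalized, in a table of 41721 genes and 6 libraries. The gene identifiers are those of the C57BL/6NJ annotation, while the submitters' processing notes name GRCm39. The aligner, the counter and its use of strand are not given in the sources used here, and coordinates are as the table gives them.

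Genes were filtered with filterByExpr, scaled by TMM and tested on genotype alone with the quasi-likelihood test of edgeR 4.0.16 in R 4.3.3, with Benjamini-Hochberg adjustment over 14085 genes. CPM used TMM-scaled library sizes, and RPKM are CPM per kilobase of the deposited gene length. The 2-fold limit followed the study's methods, which set 0.05 on the P-value, and here 0.05 was set on the adjusted p, with DESeq2 1.42.0 as an alternative. The fits were checked on simulated counts in which few genes changed, evenly in both directions. That check cannot speak to the scaling, since the simulated genotypes did not differ widely as these did. Depth was 16526044 to 22481670 counts per library, and floors and intervals cover counting error only. The members, gene lists and tests were chosen with earlier results of these data known. Named in the text are Pdk4, the core subunits (1 is not reported here), the 4 most lowered and most raised subunits, every Ndufaf, members with overlapping genotypes, unsteady calls or overlapping spans, and the extremes of each other list. Xist, Eef1b2, Mrpl47, Shmt2 and Braf were looked up after values were seen. Older symbols were matched through RefSeq names of GRCm38.p6. Ndufb1 and Ndufaf8 carry no such name in the table and are given under other observations. Mitochondrially encoded subunits were not analysed here, since no row lies on that chromosome and the 1 row named for one (mt-Nd6, placed on chromosome 4) had 0 counts in every library.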

Additional observations from a re-analysis of the deposited data

How the results depend on the processing

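RLE scaling, DESeq2, protein-coding genes alone and the replicate block left the direction and the call by both limits together of each of 56 gene values (the 45 members, Pdk4 and 10 other assembly factors). The adjusted p alone crossed 0.05 for Ndufs4 under all 4 (0.02351 to 0.04281, from 0.05091), for Ndufv3 with RLE and with protein-coding genes alone, for Ndufc1 with DESeq2 and with the block, and for Ndufb4 and Ndufb7 with the block (12 subunits lower and 9 higher). Subunits lower fell from 2 to 1, and assembly factors lower from 2 to 1, with upper-quartile scaling, with no filter, with at least 10 counts in every library and with the length trend removed. Subunits higher fell from 4 to 3 with at least 10 counts in every library, where Ndufa4l2 was not tested. With library totals alone 2390 of all genes were lower in place of 3733, 0 subunits were lower and 11 higher, and 1 assembly factor was lower. By the adjusted p alone 11 subunits were lower. At that limit, added after seeing the data, subunits higher were 10 with upper-quartile scaling, 10 with no filter and 14 with the length trend removed, and with library totals alone 1 subunit was lower and 20 higher, and 1 assembly factor was lower. The cause was not tested.

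Leaving out a library in turn gave 1 to 4 subunits lower, 4 to 5 subunits higher, 1 to 2 assembly factors lower and 2 to 3 higher. By the adjusted p alone it gave 9 to 13 subunits lower and 4 to 14 higher, the latter without Pdk4fl/fl replicate 3, and 2 to 3 assembly factors lower. The labels number replicates 1 to 3 in each genotype. Deviations of same-numbered libraries over all genes tested correlated at 0.0396, 0.0604 and 0.176, and 2 of 3 correlated best with their own number. Among the members, replicate 3 stood above its genotype's others in 43 of 44 in Pdk4fl/fl and 40 of 44 in Pdk4SMKO. Whether same-numbered libraries were handled together was not tested. With the replicate block 3704 genes were lower and 4577 higher, with 2 and 4 subunits and 2 and 3 assembly factors, and it changed no call by both limits among the 56 genes.

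With 3 libraries a genotype, differences within about the standard errors given (median 0.20 for the subunits) could not be told from the spread. Larger ones also went uncalled, such as Ndufs4 at -0.51 ± 0.22 and Ndufc1 at 0.79 ± 0.35 (edgeR adjusted p = 0.05091 and 0.05904). Direction under 2-fold depended on scaling, and no value separates genotype from sex, cell makeup or culture.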

Other observations

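A pair of complex I genes stood in the table under other names and outside the naming rule. The row described as the Ndufb1 protein, a small membrane arm subunit, had 394, 708 and 831 counts in Pdk4fl/fl and 515, 534 and 621 in Pdk4SMKO, or 42.7 and 26.6 CPM on average (log2 fold change -0.68, edgeR adjusted p = 0.03969), with overlapping genotypes. Pdk4fl/fl replicate 3 was again the highest library, at 62.9 CPM. The row named 1810043H04Rik, an older symbol of the assembly factor Ndufaf8, was at 7.07, 9.39 and 15.1 CPM against 5.97, 4.78 and 6.03 CPM (-0.91, edgeR adjusted p = 0.01291), lower by less than 2-fold and without overlap.

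Of 36 pseudogene rows whose descriptions name a protein of the Nduf genes (Ndufa4 and 2 assembly factors included), 24 had 0 counts in every library and 6 had at least 10 in all. The processed pseudogene described as Ndufa7 had 111, 95 and 107 counts in Pdk4fl/fl and 13, 7 and 13 in Pdk4SMKO (-3.71, edgeR adjusted p = 3.992e-06), while Ndufa7 itself was at 81.0 ± 33.8 and 62.5 ± 9.95 CPM (SD, n = 3 each) and was not called. The processed pseudogene described as Ndufb4 had 2, 0 and 2 counts against 11, 10 and 13, and Ndufb4 was at 24.0 ± 7.98 and 34.1 ± 4.04 CPM (0.51, edgeR adjusted p = 0.05003). How reads were divided between a gene and such a copy is not given in the sources used here, and its part in these values was not tested.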
